A study of Mus musculus with 14 samples.

Results

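The cells described here are neutrophil progenitors, taken by a marker gate from the cells collected at day 17. A barcode was kept when it held at least 500 genes and 10000 counts. A kept day 17 cell was a member when Elane, the gene of neutrophil elastase, reached 1000 CPM, counts scaled to a total of 1000000 per cell or per sum. It also had to hold more than 10 counts in 2 or more of Cebpe, Fcnb, S100a8, Trem3 and Prss57, and more than 10 counts in at most 2 of the monocyte and dendritic genes Ly86, Irf8, Csf1r, F13a1, Ccr2 and Fn1. The gate held 51 of the 713 kept day 17 cells, out of 1010 kept cells in the series. The members were thus chosen by the measured values of 12 genes, which are given as a description with no test.

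The study traced the progeny of adult mouse hematopoietic stem cells with an inducible label. Lin- Tom+ cells of 5 mice were sorted singly into 14 plates of 96 wells, and transcript 3' ends were read with a modified Smart-seq2 protocol. Day 3 had 1 mouse (m4539, 2 plates), day 10 had 1 mouse (m4533, 3 plates), and day 17 had 3 mice: m4528 on 4 plates, m605 on 2, m606 on 2, and 1 further plate that mixed cells of m605 and m606. All groups carried the same label and sort, and the labels give no strain, age, driver of the label or event from which the days were counted. Mouse m4528 was in the first count table, and m605 and m606 were in the second.

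Neutrophils arise in the marrow from granulocyte-monocyte progenitors, which also give rise to monocytes. At the promyelocyte stage they pack serine proteases and myeloperoxidase into primary granules, and at later stages they fill secondary granules with lactoferrin, lipocalin and cathelicidin. Cebpe encodes the C/EBP factor of the later granule program, and Gfi1 encodes a repressor that favours the neutrophil over the monocyte fate, where Irf8 acts.

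The members made up a similar share of the kept cells in each mouse. The share was 6.94% of 288 cells in m4528 (20 members, exact 95% binomial interval 4.29 to 10.5%), 6.99% of 143 in m605 (10 members, 3.40 to 12.5%) and 5.82% of 189 in m606 (11 members, 2.94 to 10.2%), with a mean of 6.59% ± 0.664 (SD, n = 3). The plate that mixed both mice held 10 members among 93 cells, 10.8% (5.28 to 18.9%). Over the 9 day 17 plates the share ran from 3.19% to 10.8%, and all of these intervals overlap. The intervals cover counting error only, and the sources used here do not state whether reads were collapsed by molecular identifiers. None of the 190 kept cells of day 3 was inside the gate, with an exact 95% upper limit of 1.92% (3 counts of the total would be 1.58%). At day 10, 1 of 107 cells was (0.935%, 0.0237 to 5.10%). Days 3 and 10 each came from 1 mouse, so day and mouse cannot be told apart.

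Elane reached a median of 5508 CPM in the members (lowest 1178, highest 10312), against a median of 95.8 CPM in the other 662 day 17 cells. The members' medians were 5153 CPM in m4528, 5837 in m605 and 6093 in m606, so the mice lay close together. The 3 members nearest the threshold held 1178, 1610 and 2061 CPM. The 3 nearest cells that failed on Elane alone held 946, 590 and 521 CPM. More than 10 counts of Trem3, a receptor gene of the TREM cluster, were seen in 49 of the 51 members, and the same number held Prss57, a serine protease gene. Cebpe passed in 46, S100a8, which encodes a subunit of calprotectin, in 31, and Fcnb, a ficolin gene of myeloid cells, in 23. All 5 of these genes passed in 21 members, 4 in 8, 3 in 17 and only 2 in 5. Of the monocyte and dendritic genes, F13a1 passed in 20 members, Irf8 in 5, Ly86 and Csf1r in 4 each, Ccr2 in 2 and Fn1 in none. No such gene passed in 25 members, 1 in 17 and 2 in 9, the most the gate allows. Of the day 17 cells outside the gate, 42 failed only by the monocyte limit, 8 only by the neutrophil markers and 7 only by Elane.

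**Figure D1:**
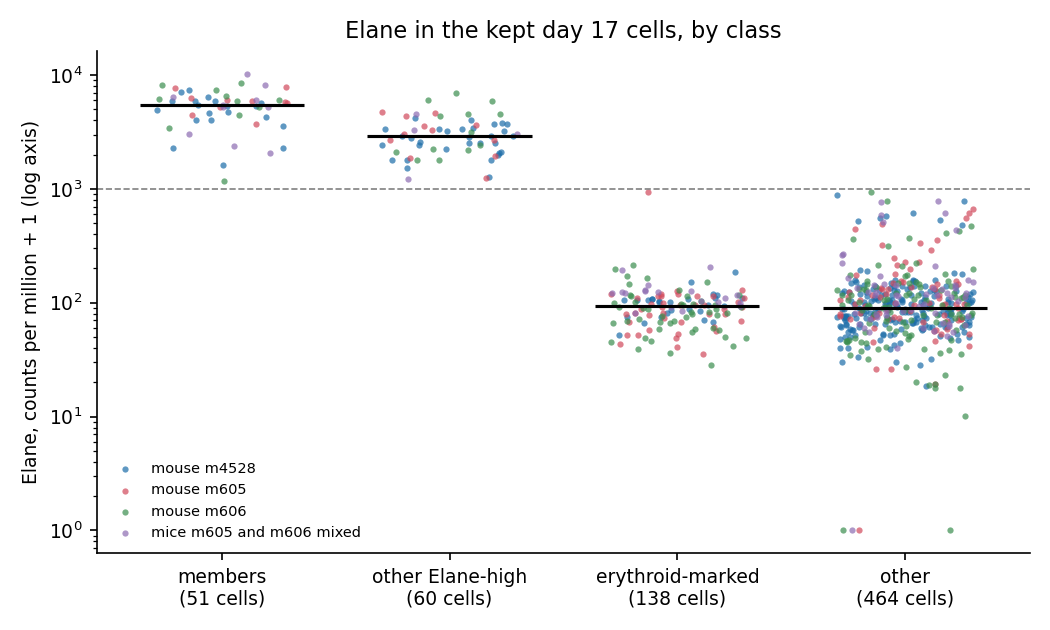
Elane in each kept day 17 cell, in CPM plus 1 on a log axis, for the 51 members, the 60 other cells above the Elane threshold, 138 cells with erythroid markers and the remaining 464 cells. Points are cells coloured by mouse, black bars are class medians, and the dashed line is the threshold of 1000 CPM; the members' median is 5508 CPM and that of the erythroid-marked cells 91.7 CPM.

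A low level of Elane, Mpo and Ms4a3 RNA was present in cells with erythroid markers. All 138 day 17 cells with more than 10 counts of both Klf1 and Car1 and with Elane under the threshold, called erythroid-marked below, held Elane reads, at a median of 91.7 CPM (27.4 to 946). Their medians were 368 CPM for Mpo and 33.8 CPM for Ms4a3, where the members had 9616 and 3880 CPM. Their median depth was 225312 counts per cell and that of the members 320661. The erythroid-marked cell at 946 CPM of Elane was the nearest cell that failed the gate on Elane alone. It held 6813 CPM of Mpo, 192 of Cebpe, 1703 of Cpa3 and 421 of Mcpt8, so the class is not free of granulocyte RNA. More than 10 counts of Gfi1 were found in 0 of the 138 erythroid-marked cells, which allows a share of up to 2.17%, and in 27 of the 51 members. The 96 well barcodes recurred from plate to plate, those of all 51 members included, and barcodes within a plate differed by at least 4 bases. How far reads passed between wells was not tested.

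The members were deeper than the rest of the day 17 cells. Their median depth was 431804 counts per cell in m4528, 243063 in m605 and 238656 in m606, against 147245, 113937 and 112666 in the other cells. After each cell was thinned to 10000 counts, the members still showed a median of 2724 genes in m4528, 2635 in m605 and 2961 in m606, and the other cells 1818, 2248 and 2543. The other cells above the Elane threshold had depths like the members' (421282, 258953 and 252321). The part of depth in the differences below was not tested beyond repeating the tests on thinned cells. No doublets were called.

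Against all other kept day 17 cells, 11 of 18 genes of the primary granule list rose in the members. So did 5 of 39 secretion and folding genes, and 9 of 19 erythroid genes fell. All 17 stem cell genes had negative fitted fold changes, of which 1 passed the test. The question was which genes outside the gate set these cells apart from the rest of the labelled progeny. Counts were summed per mouse over members and over the other cells, the 2 sums of a mouse were compared within that mouse, and the plate of mixed mice was left out. Of 14107 genes tested outside the rule, 47 were higher in members (0.333%) and 41 lower (0.291%) at an adjusted p under 0.05 (Benjamini-Hochberg) in the quasi-likelihood test of edgeR, 0.624% in all. DESeq2 called 574 higher and 1045 lower in the same sums, so its calls leaned more to the lower side. At an unadjusted p under 0.05 by edgeR, 768 of the 14107 genes were higher and 1689 lower, the background for the unadjusted counts of lists below. The median log2 fold change over all genes tested was -0.16 with TMM scaling, -0.11 with DESeq2 and -0.30 with means of CPM over cells. The other cells are a mixture of lineages, so that fewer cells of a type and less RNA per cell cannot be told apart in their sums. The p-values measure the spread over 3 mice.

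The primary granule list had the most genes called higher by edgeR. Of 18 such genes tested outside the rule, 11 rose and none fell, with a median log2 fold change of 2.58. In 13 of the 18 the 3 members' sums lay above the 3 others, where 3.81% of all genes tested did so. Summed over the list, the members held 38942 CPM in m4528, 46355 in m605 and 50720 in m606, and the other cells 12579, 9513 and 11346. Every member had to reach the Elane threshold, which 60 of the 662 other cells did. Rises of granule genes that go with Elane are therefore bound up with the gate. The list was also chosen with earlier results of these data known, so its counts are a description. It holds Ms4a3 and inhibitors such as Serpinb1a too, so a place on it does not put a product in the granule.

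The promoters of the main serine protease genes and of Mpo are shown because these genes were high together in the members. Each run is the 250 bases before the transcript start from RefSeq on GRCm38.p6, 5′ to 3′ on the gene's strand. Capitals mark GAGGAAG or its reverse complement, a core bound by the myeloid factor PU.1. Elane (chr10:79886312-79888216) and Prtn3 (chr10:79879667-79883174) are neighbours on chromosome 10, Mpo is on chromosome 11 and Ctsg on chromosome 14.
Elane chr10:79886062-79886311, plus strand: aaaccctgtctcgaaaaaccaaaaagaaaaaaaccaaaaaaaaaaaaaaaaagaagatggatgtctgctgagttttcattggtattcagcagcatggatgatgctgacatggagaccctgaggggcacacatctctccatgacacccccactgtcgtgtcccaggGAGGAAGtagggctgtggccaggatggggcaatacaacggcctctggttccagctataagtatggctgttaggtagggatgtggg
Prtn3 chr10:79879417-79879666, plus strand: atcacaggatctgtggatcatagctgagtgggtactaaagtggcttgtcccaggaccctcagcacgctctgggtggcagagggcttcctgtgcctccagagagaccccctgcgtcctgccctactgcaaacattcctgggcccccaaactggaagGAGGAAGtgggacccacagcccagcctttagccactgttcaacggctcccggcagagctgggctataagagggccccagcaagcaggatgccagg
Mpo chr11:87793534-87793783, plus strand: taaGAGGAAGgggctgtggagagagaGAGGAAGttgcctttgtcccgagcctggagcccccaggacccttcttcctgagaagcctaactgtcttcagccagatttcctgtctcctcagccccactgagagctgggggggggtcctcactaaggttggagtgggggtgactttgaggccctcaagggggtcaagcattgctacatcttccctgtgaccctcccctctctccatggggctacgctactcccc
Ctsg chr14:56102575-56102824, minus strand: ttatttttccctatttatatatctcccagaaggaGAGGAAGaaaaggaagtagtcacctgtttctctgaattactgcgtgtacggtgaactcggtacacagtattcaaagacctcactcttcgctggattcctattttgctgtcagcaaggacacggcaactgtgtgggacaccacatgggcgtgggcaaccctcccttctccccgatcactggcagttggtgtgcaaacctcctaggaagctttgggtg
The motif starts at -85 in Elane, at -95 in Prtn3, at -247 and -224 in Mpo and at -216 in Ctsg, counted back from the transcript start. GAGGAAG was present, on either strand, in 14 of the 51 windows (27.5%) of genes that were called higher or were neutrophil genes of the gate. It was present in 10.6% of all 32851 windows. The C/EBP core TTGCNNAA was in 8 of these 51 windows (15.7%) and in 9.56% of all windows, and in none of the 4 printed here. No test was made, and a match does not show binding.

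Mpo, the gene of myeloperoxidase, measured 8235 CPM in the members of m4528, 8871 in m605 and 10770 in m606, and 2445, 1524 and 2083 CPM in the other cells. All 3 members' sums lay far above all 3 others, and Mpo was higher in 3 of 3 mice with a log2 fold change of 2.45 (SE 0.20, adjusted p = 0.0252 by edgeR's quasi-likelihood test). Prtn3, the gene of proteinase 3, measured 3245, 3902 and 4010 CPM against 914, 623 and 703. Its sums did not overlap (log2 fold change 2.56, SE 0.21, adjusted p = 0.0265). Ctsg encodes cathepsin G and measured 4264, 6274 and 6584 CPM against 864, 796 and 935. Its m4528 sum was the lowest of the members' sums, and all 3 were above the other cells (2.93, SE 0.19, adjusted p = 0.0227). Ms4a3, a membrane gene of granulocyte-monocyte progenitors, measured 3559, 4173 and 4112 CPM against 526, 304 and 414. It had the largest fold change among the 11 genes of the primary granule list that rose (3.51, SE 0.26, adjusted p = 0.0235, edgeR).

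Genes that package or restrain the proteases rose as well. Serpinb1a, an inhibitor of neutrophil serine proteases, measured 1921 CPM in m4528, 1271 in m605 and 1536 in m606 against 437, 189 and 264 (log2 fold change 2.70, SE 0.20, adjusted p = 0.0235, edgeR). Cst7, the gene of cystatin F, an inhibitor of cathepsins, measured 1366, 1649 and 1263 CPM against 174, 185 and 168 (3.24, SE 0.17, adjusted p = 0.0214). Srgn encodes serglycin, the proteoglycan that holds granule proteins, and measured 4697, 4998 and 6265 CPM against 2131, 1861 and 2593. Its rise was smaller (1.51, SE 0.12, adjusted p = 0.0257). Nkg7, a granule membrane gene also known from cytotoxic lymphocytes, measured 3136, 4150 and 3548 CPM against 611, 654 and 521 (2.83, SE 0.14, adjusted p = 0.0214). Cd63, a tetraspanin of granule membranes, measured 608, 657 and 734 CPM against 168, 104 and 119 (2.61, SE 0.25, adjusted p = 0.0384). None of these genes overlapped between the groups. Gstm1 rose by 2.97 (adjusted p = 0.0494) and Plac8 by 1.75 (adjusted p = 0.0249) on the log2 scale.

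Other members of the list did not pass. Hp, the gene of haptoglobin, measured 656, 968 and 809 CPM against 237, 112 and 93.0 (log2 fold change 2.81, adjusted p = 0.0813 by edgeR). Mgst2 measured 122, 178 and 496 CPM against 20.2, 46.5 and 22.5 (3.20, adjusted p = 0.0959). Lyz2, the lysozyme of neutrophils and monocytes, measured 286, 199 and 478 CPM against 1227, 570 and 418, so that the members were the lower side in 2 of 3 mice (-0.93, adjusted p = 0.398). Ctsc, which encodes the protease that activates the granule proteases, measured 72.3, 71.9 and 64.9 CPM against 204, 60.4 and 77.6 (-0.27, adjusted p = 0.843).

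**Figure D2:**
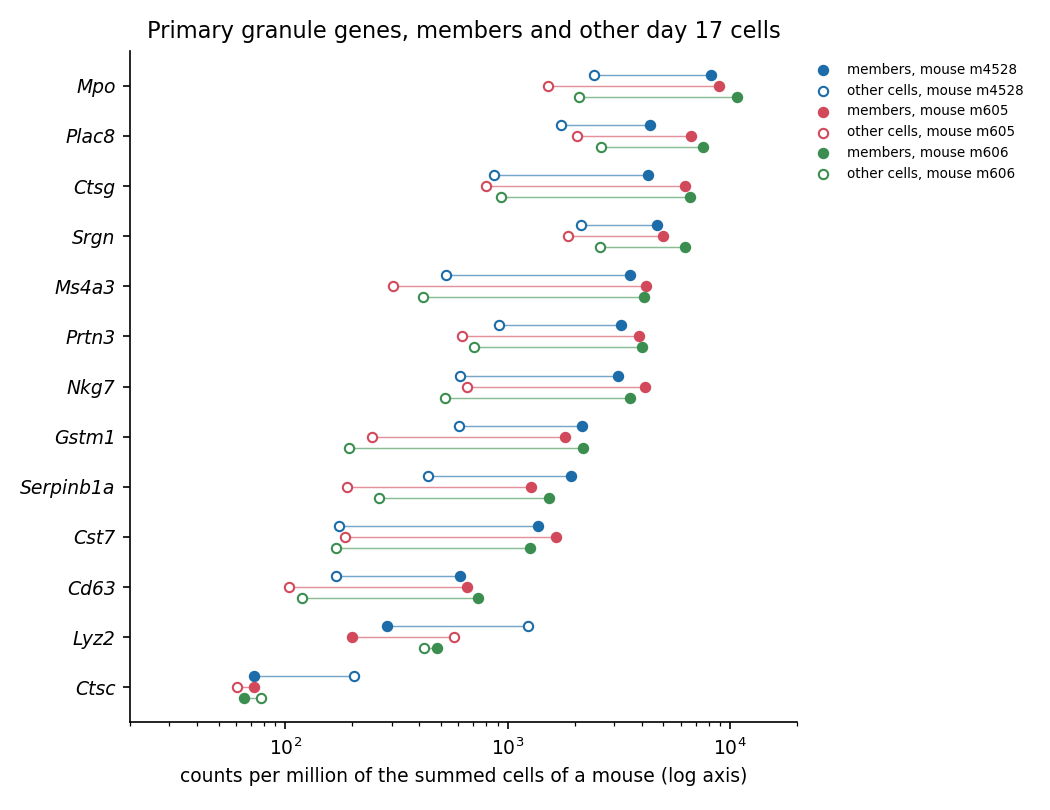
Level in CPM of 13 genes of the primary granule list in the summed members (filled) and the summed other day 17 cells (open), on a log axis. Lines join the sums of a mouse, for mice m4528, m605 and m606. The members lie above the other cells in all 3 mice for the first 11 genes, and the sums overlap for Lyz2 and Ctsc.

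The secondary and tertiary granule genes gave few calls. Of 17 genes tested, 2 rose by edgeR, Serpinb1a and Anxa1, and none fell, with a median log2 fold change of 0.76. At an unadjusted p under 0.05 by edgeR 7 were higher and 2 lower, and DESeq2 called 7 and 2. In 6 of the 17 the members' sums lay above the others, where 3.81% of all genes tested did so. The summed level of the list, Serpinb1a included, was 4222, 2797 and 3625 CPM in the members of m4528, m605 and m606. In the other cells it was 3021, 1195 and 1188 CPM. Anxa1, the gene of annexin A1, measured 854, 455 and 597 CPM against 388, 187 and 204 (1.55, SE 0.17, adjusted p = 0.0438, edgeR). Serpinb1a is also on the primary granule list. Mmp9 and Itgb2l had no count in the members.

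Within that list the genes of the classical secondary granule proteins were low. Ltf, the gene of lactoferrin, did not exceed 6.03 CPM in any member. Camp, the gene of cathelicidin, measured 338 CPM in the members of m4528, 22.3 in m605 and 0 in m606, and 114, 0.132 and 0.0362 CPM in the other cells. Lcn2, the gene of lipocalin 2, measured 61.0, 1.51 and 167 CPM against 67.7, 21.0 and 9.31 (log2 fold change 0.38, adjusted p = 0.953, edgeR). Of the 4 genes Ltf, Lcn2, Camp and Ngp, none passed 10 counts in 29 members, 1 did in 18, and 2 or more did in 4, all of m4528. Camp reached 5258 CPM in 1 member. In m4528, 2 members held 93.1% of the members' Camp counts, and without them its members measured 25 CPM. S100a9, the partner subunit of calprotectin, had a median of 0 and a highest value of 2191 CPM. The groups overlapped for Camp and Lcn2, and the mice differed among themselves.

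Wfdc21, a gene of a small whey acidic protein placed on this list, stood apart from these. It measured 60.3 CPM in the members of m4528, 357 in m605 and 229 in m606, and 7.15, 2.59 and 2.10 CPM in the other cells. The groups did not overlap, but the spread over mice left the difference outside the threshold (log2 fold change 5.99, SE 1.08, adjusted p = 0.0970, edgeR). Ltb4r1, the receptor for leukotriene B4, measured 28.6, 44.3 and 40.6 CPM against 2.26, 1.32 and 1.27 (4.80, adjusted p = 0.0792). Pglyrp1, a peptidoglycan recognition gene, measured 59.6, 123 and 169 CPM against 7.06, 12.2 and 5.40 (adjusted p = 0.0673). Both were above the other cells in 3 of 3 mice.

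The reference sum of m4528 held 1 well that carried much of its late neutrophil RNA. This well, on plate 8, held 283524 counts and 4 of the 5 markers, but its Elane was 106 CPM, a level seen in the erythroid-marked cells, and so it lay outside the gate. It held 17639 CPM of Ngp, 17237 of Camp, 3181 of Ltf and 11420 of S100a9. It supplied 95.8% of the Ltf counts, 91.7% of Ngp, 77.5% of Camp and 72.0% of Lcn2 among the other cells of m4528. The same well held 2991 CPM of Car1 and 342 CPM of Klf1 and was counted as erythroid-marked. Whether more than 1 cell shared the well was not tested. Without it, the other cells of m4528 held 25.7 CPM of Camp in place of 114 and 19.0 CPM of Lcn2 in place of 67.7.

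Late neutrophil genes gave no gene that rose: of 15 tested, 1 fell and none passed upwards by edgeR, with 3 higher and 3 lower at an unadjusted p under 0.05 and 4 and 3 called by DESeq2. The gene that fell was S100a6, a calcium binding gene, at 4.86, 8.32 and 5.59 CPM against 73.0, 162 and 75.1 (log2 fold change -3.75, adjusted p = 0.0426, edgeR). S100a11 measured 50.5, 197 and 189 CPM against 17.4, 38.5 and 48.9 (2.18, adjusted p = 0.0814). Csf3r, the receptor for granulocyte colony-stimulating factor, measured 54.4, 8.70 and 39.5 CPM against 15.4, 4.47 and 5.29, higher in 3 of 3 mice but with overlapping groups (2.13, adjusted p = 0.165).

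Among 34 transcription factors of granulocyte development, 1 rose and none fell, with a median log2 fold change of 0.02. The factor was Gfi1, at 119 CPM in the members of m4528, 76.8 in m605 and 123 in m606, and 8.07, 1.97 and 2.75 CPM in the other cells (5.10, SE 0.54, adjusted p = 0.0426, edgeR). Gfi1 was low in all 3 sums of the other cells, and the groups did not overlap. Spi1, the gene of PU.1, measured 363, 448 and 309 CPM against 173, 139 and 126, above in 3 of 3 mice (1.58, adjusted p = 0.0798). Cebpd measured 315, 160 and 415 CPM against 108, 121 and 99.7 (1.57, adjusted p = 0.112). Cebpa, the C/EBP factor of early granulocyte-monocyte progenitors, measured 33.7, 10.6 and 35 CPM against 7.09, 10.8 and 9.60, with both sums of m605 at about the same level (1.62, adjusted p = 0.342). Klf4, a monocyte factor, lay below the other cells in 3 of 3 mice at 0.113, 1.51 and 0.373 CPM against 16.2, 34.9 and 22.5 (-5.46, adjusted p = 0.0959).

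Genes of protein secretion and folding had positive fitted fold changes in most of the list, though few passed. Of 39 tested, 5 rose (Ssr2, Manf, P4hb, Calr and Sdf2l1) and none fell, 36 fitted fold changes were positive, and the median was 0.92. In 17 of the 39 the members' sums lay above the others without overlap. The rise was not particular to the members. Against the other cells above the Elane threshold none of the 39 was called by edgeR, 22 fitted fold changes were positive and 17 negative, and the median was 0.09. Against the monocyte-marked cells described below none was called either, and the median was 0.24. Sdf2l1, a cofactor of the endoplasmic reticulum chaperone BiP, measured 789, 688 and 630 CPM against 238, 193 and 181 (log2 fold change 2.02, SE 0.16, adjusted p = 0.0252, edgeR). P4hb, a protein disulfide isomerase, measured 1171, 959 and 1367 CPM against 591, 370 and 506 (1.49, SE 0.17, adjusted p = 0.0446). Calr, the gene of calreticulin, measured 573, 1167 and 1118 CPM against 258, 378 and 446, with m4528 lower than the other mice on both sides (1.60, adjusted p = 0.0481). Calr, Manf and Sdf2l1 were named after their values were seen.

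Metabolic genes gave few calls. Of 17 glycolysis genes 2 rose, Hk3, a hexokinase of myeloid cells (log2 fold change 2.63, adjusted p = 0.0462, edgeR), and Gpi1 (1.83, adjusted p = 0.0469). Among 20 pentose phosphate and antioxidant genes, Gsr, the glutathione reductase gene, rose at 952, 376 and 730 CPM against 238, 125 and 130 (2.25, adjusted p = 0.0352). In the same list Prdx4, the peroxiredoxin of the endoplasmic reticulum, fell at 37.3, 20.4 and 16 CPM against 242, 224 and 252 (-3.13, adjusted p = 0.0481). Its 3 members' sums were close together and far below the others, while the secretion genes above moved the other way. Alas1, the first enzyme of heme synthesis outside the erythroid lineage, measured 1380, 855 and 1007 CPM against 266, 132 and 110 (2.98, SE 0.21, adjusted p = 0.0235). None of the 8 NADPH oxidase genes passed by edgeR, with 5 higher at an unadjusted p under 0.05 and 5 higher by DESeq2. Ncf1, which encodes a cytosolic subunit, measured 200, 218 and 160 CPM against 82.6, 33.2 and 37.3 (2.26, adjusted p = 0.0959).

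Genes outside these lists were among those with the largest rises. Hsd11b1, which encodes the enzyme that regenerates active glucocorticoid, measured 309, 162 and 210 CPM against 19.4, 2.89 and 5.72 (log2 fold change 5.21, SE 0.50, adjusted p = 0.0384, edgeR). Far2, a fatty acyl-CoA reductase gene, measured 193, 75.3 and 77.5 CPM against 6.80, 3.55 and 4.42 (4.68, SE 0.40, adjusted p = 0.0265). Neither gene's groups overlapped, and m4528 was the highest of the members' sums in both. Hdc, the histidine decarboxylase gene that makes histamine, measured 394, 258 and 315 CPM against 58.8, 24.2 and 31.8 (3.38, SE 0.27, adjusted p = 0.0252). Trim45 rose by 3.78 (adjusted p = 0.0426), Cldn15 by 3.45 (adjusted p = 0.0391), Nucb2 by 3.07 (adjusted p = 0.0446) and Dstn by 2.94 (adjusted p = 0.0438). Prom1, the gene of prominin 1, measured 121, 32.9 and 57.8 CPM against 2.11, 0.395 and 0.290 (6.78, SE 0.65, adjusted p = 0.0384). It averaged under the 100 CPM needed for naming and was chosen after its value was seen. Prom1 passed 10 counts in 20 of 51 members, in 1 of 60 other cells above the Elane threshold and in 0 of 138 erythroid-marked cells, which allows a share of up to 2.17%. Lta4h and Ptgr1, whose enzymes make and break down leukotriene B4, were also chosen after the fact and rose by 2.22 and 2.67 (adjusted p = 0.0235 for each).

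Among 31 surface and adhesion genes 3 rose (Cd63, Clec12a and Ly6c2) and 1 fell (Lgals3). Clec12a, an inhibitory lectin receptor of myeloid cells, measured 1510, 1692 and 1512 CPM against 307, 182 and 260 (log2 fold change 2.91, SE 0.26, adjusted p = 0.0284, edgeR). Ly6c2 rose by 1.68 (adjusted p = 0.0408), but its reads may be shared with the near-identical Ly6c1. Fcgr3, a low-affinity IgG receptor, measured 924, 1116 and 1193 CPM against 322, 185 and 163 and missed the threshold (2.56, adjusted p = 0.0551). None of 21 cytokine and chemokine receptor genes passed by edgeR, with 3 higher and 6 lower at an unadjusted p under 0.05, and 3 and 7 by DESeq2. The surface and adhesion list was not higher in the members than in similar cells. Its summed level was 9222 to 12742 CPM in the members and 14327 to 18639 CPM in the other cells above the Elane threshold. Against those cells none of its 31 genes was called, and 22 fitted fold changes were negative. In the monocyte-marked cells described below it was 15541 to 22402 CPM, and 1 gene rose and 2 fell. Clec12a and Ly6c2 were called in neither comparison.

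Erythroid genes were the listed group with the most genes called lower by edgeR. Of 19 erythroid genes 9 fell and none rose, with a median log2 fold change of -3.85 and a summed level of 474 to 543 CPM in the members against 4991 to 9900 CPM. In 13 of them the members' sums lay below the others, where 17.5% of all genes tested did so. Car1, a carbonic anhydrase of erythroid progenitors, measured 18.9, 71.5 and 63.0 CPM against 601, 2043 and 1753, and had the lowest adjusted p of all genes (-4.65, SE 0.17, adjusted p = 0.0115, edgeR). Klf1, the erythroid Kruppel-like factor, measured 6.89, 25.7 and 19.4 CPM against 302, 556 and 463 (-4.59, SE 0.33, adjusted p = 0.0235). In single members, Klf1 and Gata1 passed 10 counts in 1 of 51 each, while Car1 passed in 31 at a median of 38.6 CPM, against 3544 CPM in the erythroid-marked cells.

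Few stem cell, megakaryocyte, basophil and mast cell genes passed. The 17 stem cell genes had a median of -3.36, and 14 lay below the other cells without overlap, but only Pdzk1ip1 passed, at 20.3, 3.78 and 10.4 CPM against 235, 170 and 237 (-4.20, adjusted p = 0.0446, edgeR). The 14 megakaryocyte genes had a median of -3.56, and F2r, a thrombin receptor gene among them, fell (-4.95, adjusted p = 0.0481). Of 9 basophil and mast cell genes Hdc rose while Gata2 (9.61, 7.19 and 7.83 CPM against 222, 113 and 187, -4.14, adjusted p = 0.0275) and Fcer1a (-5.27, adjusted p = 0.0481) fell. The summed level of that list was 908, 657 and 721 CPM in the members against 1395, 438 and 1577 CPM, higher in m605 and lower in the other mice. Mcpt8, a protease of basophils, passed 10 counts in 35 of 51 members (68.6%), at a median of 115 CPM, and in 172 of the 662 other cells (26.0%), which were shallower. Prss34, another basophil protease, passed in 25 members (49.0%) and 214 other cells (32.3%). Fcer1a, Procr, Siglech, Epx, C1qa and Cdh5 passed in 0 of 51, which allows a share of up to 5.88%. In the other cells Procr passed in 8.16% and the rest in 2.11% or less, so these zeros say little. Cd79b passed in 30 members (58.8%) and 110 other cells (16.6%), and Pf4 in 23 (45.1%) and 208 (31.4%). Prg2 passed in 9 (17.6%) and 70 (10.6%), and Cpa3 in 7 (13.7%) and 59 (8.91%). Itga2b and Gp9 went the other way, in 1 member each and in 132 and 110 other cells. None of 10 dendritic cell genes passed by edgeR, with 6 lower at an unadjusted p under 0.05 and 7 lower by DESeq2. The part of stray RNA in the low levels of these genes was not tested.

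Cell cycle genes showed no call. None of 36 S phase genes passed by edgeR, with 5 higher at an unadjusted p under 0.05 and 2 higher by DESeq2, and none of 38 G2M genes, with 6 lower at an unadjusted p and 1 lower by DESeq2. The medians were 0.23 and -0.44. Per cell the picture differed from the sums. After thinning, the median G2M level was 4250 CPM in the members of m4528, 3900 in m605 and 3300 in m606, against 1400, 2500 and 2000 in the other cells. This was not particular to the members. The level was 5900, 3200 and 8200 CPM in the other cells above the Elane threshold and 7900, 6400 and 7900 in the erythroid-marked cells. In the monocyte-marked cells described below it was 6500, 3900 and 2800 CPM. Thinned S phase levels of the members were 10500, 6750 and 8500 CPM against 4900, 7300 and 5000 in all other day 17 cells, so m605 went the other way. The other cells above the Elane threshold held 11200, 9350 and 7700 CPM. The sums weight cells by depth. Among 25 interferon response genes none passed by edgeR, with 4 lower at an unadjusted p under 0.05 and 8 lower by DESeq2. Of all 14107 genes tested, 1689 were lower at that unadjusted p, so the unadjusted counts of the interferon and G2M lists were near the background. Other measures of the interferon list were further from it. DESeq2 called 1045 of all genes lower, against 8 of these 25. In 9 of the 25 the members' sums lay below the others, where 17.5% of all genes tested did so. The list's median was -0.87, against -0.16 over all genes. In the G2M list 10 of 38 lay below in this way.

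**Figure D3:**
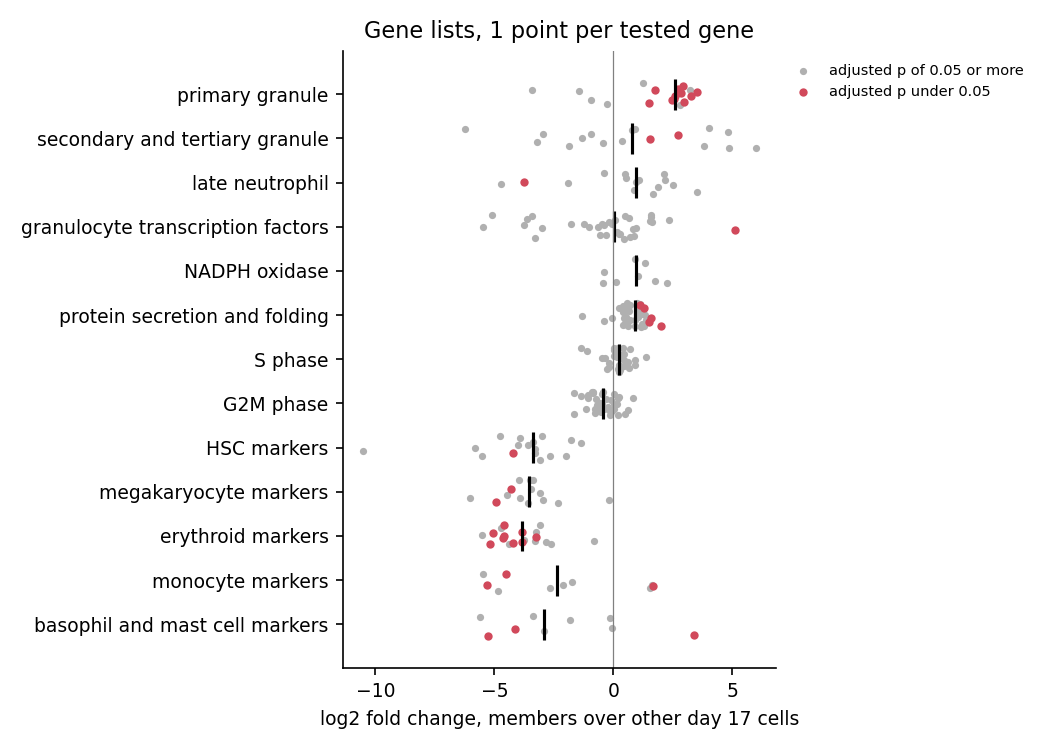
Log2 fold change, members over other day 17 cells, of each tested gene of 13 lists, with genes at an adjusted p under 0.05 in red and list medians as black bars. Genes of the primary granule list centre on 2.58 and secretion genes on 0.92, erythroid genes on -3.85 and stem cell genes on -3.36.

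The calls of this comparison rested on all 3 mice. With m4528, m605 or m606 left out, 9, 18 and 0 genes were higher and 3, 15 and 0 lower. With marker calls at more than 5 counts in place of 10, the gate gave 19 higher and 13 lower genes.

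Against the monocyte-marked cells, the members had more of some genes of the primary granule list and less of several monocyte genes. Monocyte-marked cells were those that passed 10 counts for 3 or more of the 6 monocyte and dendritic genes. The comparison asked what separates the neutrophil from the sister lineage among genes outside the gate. There were 106 such cells, 44 in m4528, 18 in m605, 29 in m606 and 15 on the mixed plate. Of 10898 genes tested outside the rule, 7 were higher in members (0.0642%) and 11 lower (0.101%) by edgeR's quasi-likelihood test. The 6 genes define both sides of this comparison, so falls of other monocyte genes are bound up with the gate. Every member also had to reach the Elane threshold, which 52 of the 106 monocyte-marked cells did. Rises of granule genes that go with Elane are therefore bound up with the gate as well. The members' sums are those used above.

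Of the 7 genes that rose, 6 were on the primary granule list. Wfdc21 was the exception, at 60.3, 357 and 229 CPM against 1.48, 5.17 and 2.94 in the monocyte-marked cells (log2 fold change 5.92, SE 0.38, adjusted p = 0.0260, edgeR). Cd63 measured 608, 657 and 734 CPM against 39.1, 28.7 and 31.1, with little spread on either side (4.37, SE 0.23, adjusted p = 0.0187). Nkg7 measured 3136, 4150 and 3548 CPM against 684, 1105 and 744 (2.15, SE 0.10, adjusted p = 0.0186). Ms4a3 measured 3559, 4173 and 4112 CPM against 1357, 1173 and 1221 (1.68, SE 0.12, adjusted p = 0.0342). Serpinb1a rose by 1.44 (adjusted p = 0.0389), Srgn by 1.30 (adjusted p = 0.0257) and Ctsg by 0.97 (adjusted p = 0.0465). None of the 7 overlapped between the groups. Of all genes tested here, 4.51% had the members' 3 sums above and 7.1% below the monocyte-marked ones.

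Mpo and Prtn3 were closer between the 2 lineages. Mpo measured 8235, 8871 and 10770 CPM against 5823, 5880 and 7001, higher in 3 of 3 mice but outside the threshold (log2 fold change 0.60, SE 0.06, adjusted p = 0.0560, edgeR). Prtn3 measured 3245, 3902 and 4010 CPM against 2091, 2471 and 2437 (0.70, SE 0.08, adjusted p = 0.0680). Plac8 overlapped, at 4373, 6702 and 7555 CPM against 3596, 6000 and 6863 (0.22, adjusted p = 0.389). Gfi1 measured 119, 76.8 and 123 CPM against 9.81, 6.98 and 10.8 and did not pass either (3.55, SE 0.40, adjusted p = 0.0762).

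Ctss, the gene of cathepsin S of antigen-presenting cells, had the largest fall, at 3.39, 2.27 and 1.86 CPM against 531, 285 and 405 (log2 fold change -7.29, SE 0.31, adjusted p = 0.0186, edgeR). Lgals3, the gene of galectin 3, measured 10.3, 17 and 2.98 CPM against 1146, 1302 and 540 (-6.74, SE 0.32, adjusted p = 0.0186). These monocyte genes were nearly absent from the members. Ighm, the immunoglobulin heavy chain mu gene, measured 84.8, 91.2 and 61.9 CPM against 1217, 689 and 841 (-3.49, SE 0.26, adjusted p = 0.0342). Prdx4 measured 37.3, 20.4 and 16 CPM against 394, 375 and 384, so it was low in the members in this comparison too (-4.01, SE 0.33, adjusted p = 0.0389). Vim, the gene of vimentin, measured 198, 301 and 325 CPM against 881, 1158 and 1131 (-1.94, SE 0.14, adjusted p = 0.0342). S100a6, Fcer1g, S100a10, Crip1, Cst3 and Ly6e also fell, with log2 fold changes of -5.41, -2.47, -2.43, -2.30, -1.16 and -0.95. No gene rose or fell without m4528 or m606, and without m605 1 rose and 3 fell.

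**Figure D4:**
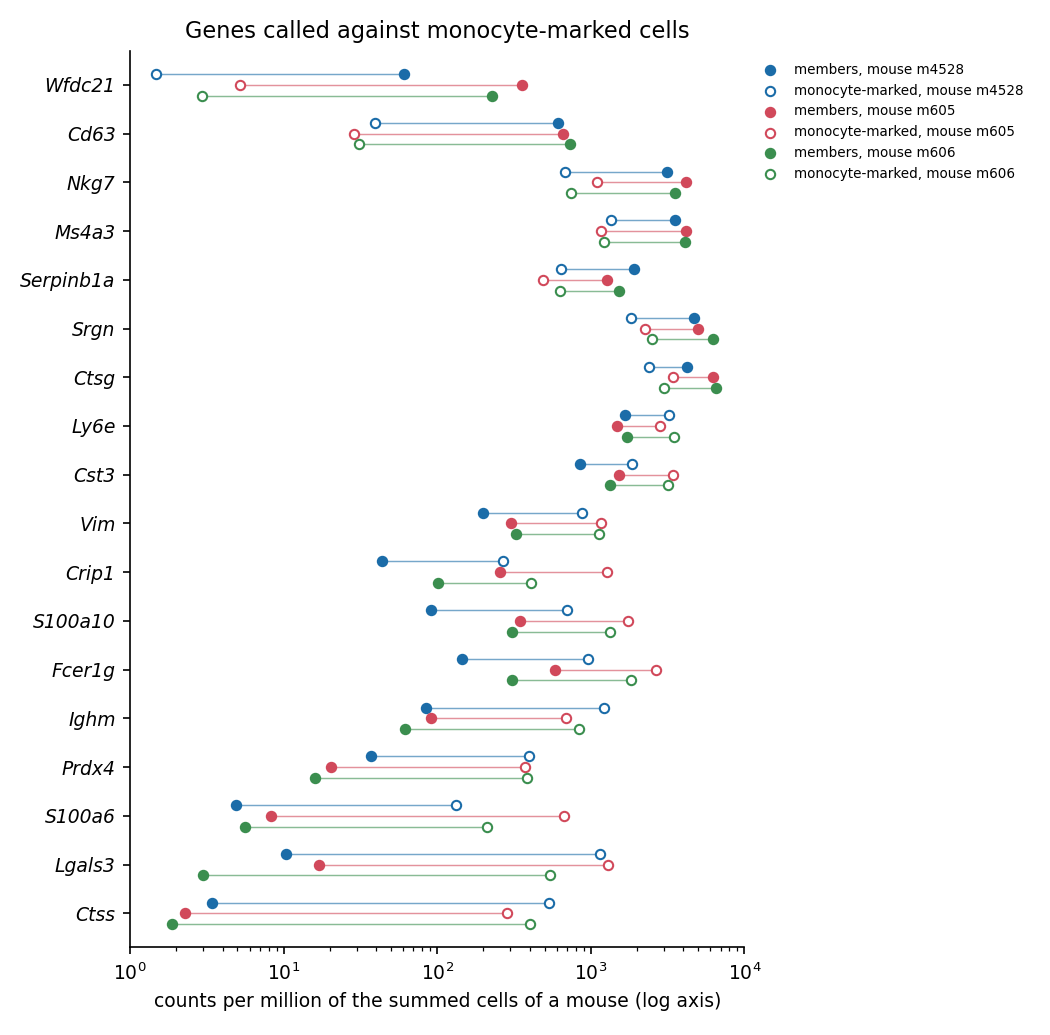
Level in CPM, on a log axis, of the 7 genes higher and 11 genes lower in members (filled) than in monocyte-marked cells (open) of mice m4528, m605 and m606, with a line joining the sums of a mouse. For each of these genes the 3 members' sums lie on 1 side of the 3 monocyte-marked sums.

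Against the other 60 cells above the Elane threshold, 52 of which were also monocyte-marked, no gene passed. Of 9993 genes tested outside the rule, 0 (0%) were called by edgeR's quasi-likelihood test, while 296 were higher and 328 lower at an unadjusted p under 0.05 and DESeq2 called 137 and 150. The lowest adjusted p was that of Wfdc21, at 60.3, 357 and 229 CPM against 0.932, 5.48 and 4.70 (log2 fold change 5.88, SE 0.38, adjusted p = 0.0733). Wfdc21 passed 10 counts in 27 of 51 members and in 1 of these 60 cells, at median depths of 320661 and 319015 counts. Nkg7 measured 3136, 4150 and 3548 CPM against 892, 1829 and 1585 (1.40, adjusted p = 0.178), and Ms4a3 3559, 4173 and 4112 CPM against 1782, 1554 and 2383 (1.08, adjusted p = 0.238). Both were higher in 3 of 3 mice without overlap, where 4.34% of all genes tested lay above and 4.52% below in this way. Mpo overlapped at 8235, 8871 and 10770 CPM against 6991, 7791 and 9406 (0.22, adjusted p = 0.568). Gfi1 measured 119, 76.8 and 123 CPM against 16.8, 8.70 and 20.1 (2.86, adjusted p = 0.292). The 3 comparisons share the members' sums, and this one shares most of its reference cells with the last.

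Among themselves the members differed in genes of early progenitors and of the later program. Cd34, the sialomucin of stem and early progenitor cells, passed 10 counts in 25 members and not in 26. Its lowest, median and highest values were 0, 21.6 and 1178 CPM, and those of Wfdc21 were 0, 32.8 and 1463 CPM. Most members held 1 of these genes and not the other: 21 held only Cd34, 23 only Wfdc21, 4 both and 3 neither. In m4528 the 4 counts were 8, 11, 1 and 0, in m605 they were 2, 5, 1 and 2, in m606 5, 5, 1 and 0, and on the mixed plate 6, 2, 1 and 1. Members with only Cd34 and members with only Wfdc21 were thus found in every mouse. In m605, however, only 3 members held Cd34, 1 of them together with Wfdc21. Median depth was 320661 counts in members with Cd34 and 330687 in those without. After thinning to 10000 counts, any Cd34 and any Wfdc21 were seen together in 6 members, Cd34 alone in 19, Wfdc21 alone in 15 and neither in 11. Cd34 passed 10 counts in 14 of the 138 erythroid-marked cells (10.1%).

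**Figure D5:**
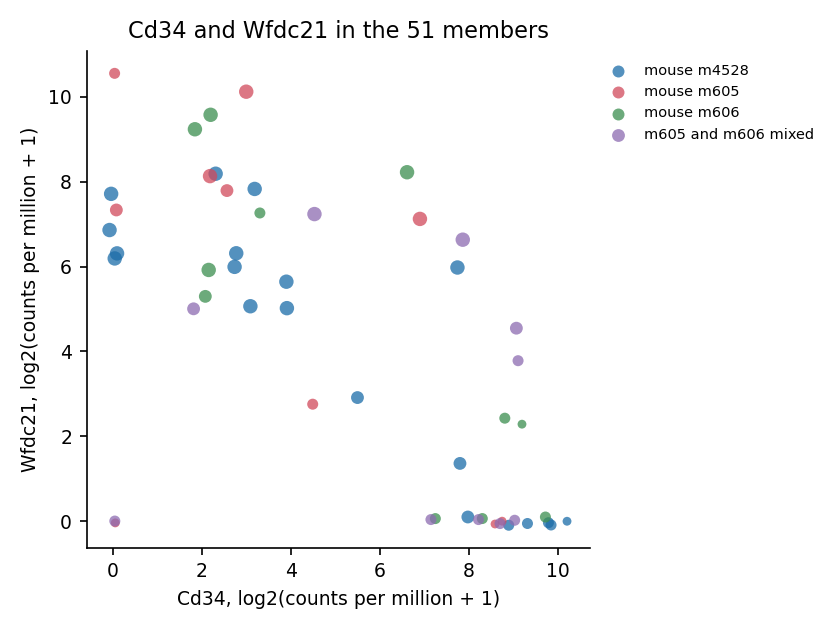
Cd34 and Wfdc21, each as log2(CPM + 1), in the 51 members, coloured by mouse, with larger points for more of the 5 neutrophil markers and a small random shift to separate points at 0. Of the members, 21 held only Cd34 and 23 only Wfdc21 at more than 10 counts.

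Markers of the gate followed the same division, given as a description since the gate used them. Of the 25 members with Cd34, 8 held S100a8 and 5 held Fcnb, and of the 26 without, 23 and 18 did. Across the 51 cells, which share plates and differ in depth, Spearman's rho was -0.72 between Cd34 and S100a8, -0.64 between Cd34 and Wfdc21 and 0.84 between S100a8 and Wfdc21. The correlation with the log2 total count was 0.20 for S100a8 and 0.12 for Wfdc21.

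Sums of the members with and without Cd34 were formed per mouse, from 9 and 11 cells in m4528, 3 and 7 in m605 and 6 and 5 in m606. They are a description, since the split was chosen after the values were seen. They were formed for a chosen set of genes only. The share of all genes whose sums would lie apart in this way was not computed, so how unusual a lack of overlap is remains unknown. Sox4, a factor of early progenitors, measured 140, 83.1 and 129 CPM with Cd34 and 19.7, 9.95 and 5.93 CPM without. The 2 kinds of member did not overlap. Serpinb1a went the other way, at 1208, 571 and 1083 CPM with Cd34 and 2503, 1721 and 1883 CPM without. Fcgr3 measured 656, 543 and 723 CPM with Cd34 and 1143, 1484 and 1553 CPM without. Clec12a measured 958, 1078 and 1068 CPM with Cd34 and 1962, 2088 and 1853 CPM without. Cd63 and Gstm1 also lay apart, with means of 401 ± 65.3 and 1456 ± 156 CPM (SD, n = 3) with Cd34 and 859 ± 118 and 2487 ± 295 CPM without. Prtn3 measured 2263, 3546 and 3481 CPM with Cd34 and 4048, 4131 and 4415 CPM without. Ms4a3 measured 2634, 3166 and 3278 CPM with Cd34 and 4314, 4820 and 4751 CPM without. Neither Prtn3 nor Ms4a3 overlapped. Mpo overlapped, at 8369, 7845 and 11099 CPM with Cd34 and 8125, 9532 and 10518 CPM without. Calr overlapped as well, at means of 964 ± 374 and 941 ± 316 CPM.

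Ordered by how many of the 5 markers passed, members with 2, 3, and 4 or 5 markers held mean Cd34 levels over mice of 708, 330 and 34.3 CPM. Gstm1 went from 346 to 1309 and 2538 CPM, Ms4a3 from 1755 to 3136 and 4689 CPM, and Hsd11b1 from 3.04 to 37.4 and 313 CPM. Mpo moved less, from 8281 to 9527 and 9803 CPM. The first step held 1, 3 and 1 cells in the 3 mice, so its means rest on few cells. Median depth was 240739 counts with 2 markers, 223904 with 3, 330687 with 4 and 393571 with 5, so depth moved with the number of markers, and its part was not tested.

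Genes of the primary granule list varied between single members as well. Mpo ran from 3065 to 25723 CPM over the 51 cells with a median of 9616, and Prtn3 from 1117 to 6454 with a median of 3717. Ctsg ran from 2029 to 10232 CPM with a median of 5271, and Ms4a3 from 849 to 6479 with a median of 3880. Elane and Ms4a3 had a Spearman's rho of 0.74 and Elane and Mpo one of 0.45 across the members. Mpo was negatively related to the log2 total count (-0.53), as was Plac8 (-0.63).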

How the data were processed

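Single cells were sorted into plates, and transcript 3' ends were read. The values were raw counts for each gene and cell barcode, in 2 tables that the authors deposited with gene symbols in capitals, which were matched by capitals. Per the submitters' processing notes the genome was GRCm38. The aligner, the counter and any use of molecular identifiers were not given in the sources used here. Kept barcodes had at least 500 genes and 10000 counts, and no doublet caller was run. All count columns matched a sample.

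Raw counts were summed per mouse over the members and over each reference class, with at least 5 cells a sum. The summed counts of members were 8849255 in m4528, 2643554 in m605 and 2682368 in m606. Both sums of a mouse come from the same animal, so the mouse was a block in the design (6 sums, 2 residual degrees of freedom). Genes passing filterByExpr were tested by edgeR 4.0.16 with TMM factors and its quasi-likelihood test, in R 4.3.3 with limma 3.58.1, and p-values were adjusted by Benjamini-Hochberg over all genes in the fit. DESeq2 1.42.0 was the alternative. The 12 genes of the rule were left out of all counts of called genes. CPM are the deposited counts scaled to a total of 1000000. Because reads come from 3' ends, levels were compared within a gene and not between genes. Tables and figures used Python 3.11.15, pandas 2.3.3, numpy 2.4.6, scipy 1.17.1 and matplotlib 3.10.9.

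The code was tested on simulated data. In sums simulated for the comparison with the other day 17 cells (14119 genes), 33% of genes changed 4-fold and 73% of those changed 16-fold were recovered, with 5.36% false calls.

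The text names the genes of the rule, and in each comparison the 12 largest positive and 10 largest negative fold changes among genes called, changed alike in every mouse and at 100 CPM or more on the higher side. It also names the 4 genes of highest mean in each list and genes of the granule, late neutrophil and transcription factor lists. Other genes, such as Klf1, Gata1, Gata2, Fcer1a, F2r, Hk3, Gsr, Ncf1, Ly6e and Sox4, were chosen after their values were seen. The members and lists were chosen with earlier results of these data known. Promoter windows and gene positions came from RefSeq on GRCm38.p6, in which 21972 of the 22842 genes of both tables matched a symbol. Some results are not reported here.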

Additional observations from a re-analysis of the deposited data

Results flagged for a closer look

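Outside the day 17 cells that the comparisons used, 1 day 10 cell was inside the gate, where the gate held none of the 190 day 3 cells. This cell, on plate 15 of m4533, held 938141 counts, more than any member. Its levels were 3375 CPM of Elane, 5813 of Mpo, 2790 of Prtn3, 3690 of Ctsg, 2933 of Ms4a3, 356 of Gfi1, 193 of Cebpe and 1685 of Prss57. S100a8 stood at 52.2 CPM and Fcnb at 0, and all 6 monocyte and dendritic genes of the gate had 0 counts. It came from the only day 10 mouse, and no test was made.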

How the results depend on the processing

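Against the other day 17 cells, the 47 higher and 41 lower genes became 574 and 1045 with DESeq2, 342 and 596 with the mixed plate as a 4th block, 272 and 381 with cells thinned to 10000 counts, 204 and 1002 with mean CPM and limma, and 19 and 13 with markers at more than 5 counts. With 1 mouse left out they ranged from 0 to 18 and from 0 to 15. Without a low-count filter 74 genes were lower. Against the monocyte-marked cells, the 7 higher and 11 lower genes became 235 and 375 with DESeq2, 16 and 40 without the filter, 19 and 58 with the mixed plate, 67 and 134 with thinned cells, 29 and 88 with mean CPM, and 0 and 1 at more than 5 counts. At more than 20 counts 17 were lower. With 1 mouse left out they ranged from 0 to 1 and from 0 to 3. Against the other cells above the Elane threshold, the 0 higher and 0 lower genes became 137 and 150 with DESeq2, 2 and 4 without the filter and 26 and 30 with thinned cells. The cause of these changes was not tested, and fewer mice leave fewer residual degrees of freedom.

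Without the mouse as a replicate block, 62 genes were higher and 68 lower against the other day 17 cells, with 39 and 36 shared with the blocked fit. Against the monocyte-marked cells 10 were higher and 31 lower, with 3 and 5 shared.

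The mean share of 6.59% became 4.37% when barcodes needed 500 genes only, since 327 day 17 barcodes entered and none was a member. With 1 mouse left out, the log2 fold change of Ctsc against the other day 17 cells ranged from -0.73 to 0.27 (without m4528), and that of Lcn2 from -1.43 (without m606) to 2.15, so that both changed sign. Of 115 results for single genes, 50 lost their call with markers at more than 5 counts and 32 gained one with DESeq2. The 1 very deep cell left out as an alternative was in none of the sums, so that setting tested nothing.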

Other observations

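Elane and Prtn3 lie side by side on chromosome 10, and several genes around them were read in the same sums. Cfd, the next gene after Elane, and Kiss1r were not found among the genes shared by both count tables, so they were not measured here. Plppr3, next to Prtn3 (chromosome 10, 79860475 to 79874958), measured 29.0 CPM in the members of m4528, 44.6 in m605 and 18.6 in m606, against 15.7, 7.41 and 12.2 CPM in the other day 17 cells. It was higher in 3 of 3 mice and did not pass (log2 fold change 1.57, adjusted p = 0.336 by edgeR). Med16 measured 81.4, 3.03 and 24.2 CPM against 46.3, 22.8 and 26.1, and R3hdm4 176, 102 and 107 CPM against 229, 94.8 and 129. Both overlapped between the groups, with log2 fold changes of -0.36 and 0.04 (adjusted p = 0.902 and 0.969). These genes were looked at for their position, after the values of Elane and Prtn3 were known.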
